A study of Mus musculus with 5 samples.

Results

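Of 5 arrays of sorted mouse pancreatic islet cells, 2 carried a high signal of the stress-response gene Atf3 and 3 did not, and the present comparison sets those 2 arrays against the other 3 across genes. The arrays were chosen by 1 measured value: an array was called stress-high if the log2 signal of its Atf3 probe set lay above 10, and stress-low otherwise. The rule chose Flattop-positive replicate 3 (P3) and Flattop-negative replicate 2 (N2) as stress-high. It left Flattop-positive replicates 1 and 2 (P1 and P2) and Flattop-negative replicate 1 (N1) as stress-low. These classes are not groups of the study. They were selected on the arrays' own signal, so every difference between them is a description and carries no test.

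Each array was hybridised with RNA from 1 pool of islet cells from 4 to 6 untreated C57BL/6 mice aged 8 to 12 weeks, all heterozygous for Flattop (FVR/+). Sorting split the cells by Flattop status, and 3 of the pools were positive and 2 negative. The sex of the mice is given as not determined in the labels. Islet identity was checked on hormone transcripts: insulin 2 (Ins2) lay at 12.37 to 13.08 and glucagon (Gcg) at 12.81 to 13.39 on the log2 scale, so both were near the top of the scale on every array. Precision is limited by having only 5 arrays, and in pools a change in the share of a cell type and a change of RNA per cell cannot be told apart. The labels do not say whether pools of 1 fraction came from separate sorts.

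Immediate early genes are transcribed within minutes of a signal without new protein synthesis. They encode short-lived transcription factors, among them the AP-1 proteins Fos and Jun and the Egr zinc finger proteins, and feedback inhibitors such as the phosphatase Dusp1. The mechanical and enzymatic steps by which tissue is taken apart for sorting are known to induce these genes, as are cytokines, depolarisation and injury. Interferon-stimulated genes are a separate programme, driven by STAT and IRF factors, that restricts viruses and raises antigen presentation.

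The promoters of several genes that the comparison turns on are shown because they carry the letters known to bind CREB/ATF, heat shock or interferon regulatory factors. The windows come from RefSeq (GRCm38.p6), are written 5′ to 3′ on the gene's strand, and end at or before the transcription start. Capitals mark the match. In the first 5, higher on the stress-high arrays, this is the CRE core TGACGT, in the next the heat shock element GAANNTTC, and in the last 3, lower on those arrays, the interferon-stimulated response element (ISRE), searched as GAAA, any 2 bases and GAAA, each on either strand. Dusp1 holds 3 matches, of which 2 overlap as both strands of 1 palindrome.
Fos, chr12:85473794-85473859, plus strand: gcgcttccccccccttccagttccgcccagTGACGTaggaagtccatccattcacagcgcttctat
Atf3, chr1:191183334-191183371, minus strand: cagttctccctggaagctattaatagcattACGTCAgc
Egr2, chr10:67537783-67537848, plus strand: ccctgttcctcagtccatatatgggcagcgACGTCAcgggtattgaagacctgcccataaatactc
Ccn1, chr3:145650009-145650074, minus strand: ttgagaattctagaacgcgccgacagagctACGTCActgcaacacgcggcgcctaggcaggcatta
Dusp1, chr17:26508578-26508693, minus strand: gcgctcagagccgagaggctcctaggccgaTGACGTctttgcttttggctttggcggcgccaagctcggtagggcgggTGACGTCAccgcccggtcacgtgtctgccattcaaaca
Hspa1a, chr17:34972223-34972290, minus strand: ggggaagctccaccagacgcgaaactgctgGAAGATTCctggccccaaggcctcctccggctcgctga
Ifit1, chr19:34640755-34640843, plus strand: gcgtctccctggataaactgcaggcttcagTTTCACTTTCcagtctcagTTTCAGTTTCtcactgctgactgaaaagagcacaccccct
Ifit3b, chr19:34607739-34607842, plus strand: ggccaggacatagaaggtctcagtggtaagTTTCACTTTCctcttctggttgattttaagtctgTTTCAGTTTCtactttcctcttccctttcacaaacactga
Apobec3, chr15:79892238-79892307, plus strand: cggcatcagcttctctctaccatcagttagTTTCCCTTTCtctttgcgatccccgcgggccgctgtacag

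Over the 250 bases before each start, the CRE core was present in 6.5% of 32851 RefSeq promoter windows and in 7.8% of the 18444 windows of the genes tested. It was present in 14.2% of 487 windows of genes higher on the stress-high arrays, in 7.7% of 444 windows of genes lower there and in 10 of 34 windows of the immediate early list (29.4%). That list has 34 genes, of which 25 were matched by symbol to the promoter table. The ISRE letters were present in 3.0% of all windows and in 2.9% of those of the genes tested. They were in 3.3% of those of the higher genes and 3.8% of those of the lower genes. In the interferon list, where 15 of 18 genes were matched, they were in 7 of 18 windows (38.9%). The AP-1 site TGANTCA, bound by Fos and Jun dimers, was in 6.7% of all windows, 6.0% of those of the genes tested and 6.6% of those of the higher genes. The heat shock element was in 6.7%, 5.8% and 4.9% of the same windows. A match is a description of letters in a window and not of a bound site.

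Before the results, several ways in which the arrays stood apart need to be given. P1 and P2 correlated at r = 0.984 over genes, while the Flattop-negative pair reached r = 0.846, the lowest of all pairs. P3, from the other stress class, correlated with P1 at 0.960. N1 was low in hormones of minor endocrine cells and in ribosomal protein genes. Somatostatin (Sst) lay at 8.08 on N1 against 12.32 to 13.19 elsewhere, and the ribosomal stalk protein gene Rplp0 at 6.53 against 11.17 to 11.65. N2 carried macrophage lysozyme (Lyz2) at 9.41, against 3.36 to 4.58 elsewhere. The Flattop-negative difference, N2 minus N1, thus includes these differences.

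The stress classes also followed the expression of Xist, the RNA that coats the inactive X chromosome and marks female cells. Xist lay at 3.58 on P1, 3.76 on P2 and 4.36 on N1, and at 7.81 on P3 and 8.62 on N2. The stress-high arrays were thus the 2 with high Xist, without overlap. The Y-linked translation factor gene Eif2s3y was nonetheless present on every array, at 8.00 on P1, 7.84 on P2, 7.78 on P3, 8.71 on N1 and 6.38 on N2. The Y-linked genes Kdm5d and Uty were also lowest on N2, at 5.27 and 4.58. Uty there lay under 4.86, the 95th percentile for olfactory receptor genes on that array. The stress class and the presence of female mice in a pool cannot be told apart in these arrays. Genes on chromosomes X and Y were left out of all counts that follow.

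**Figure D1:**
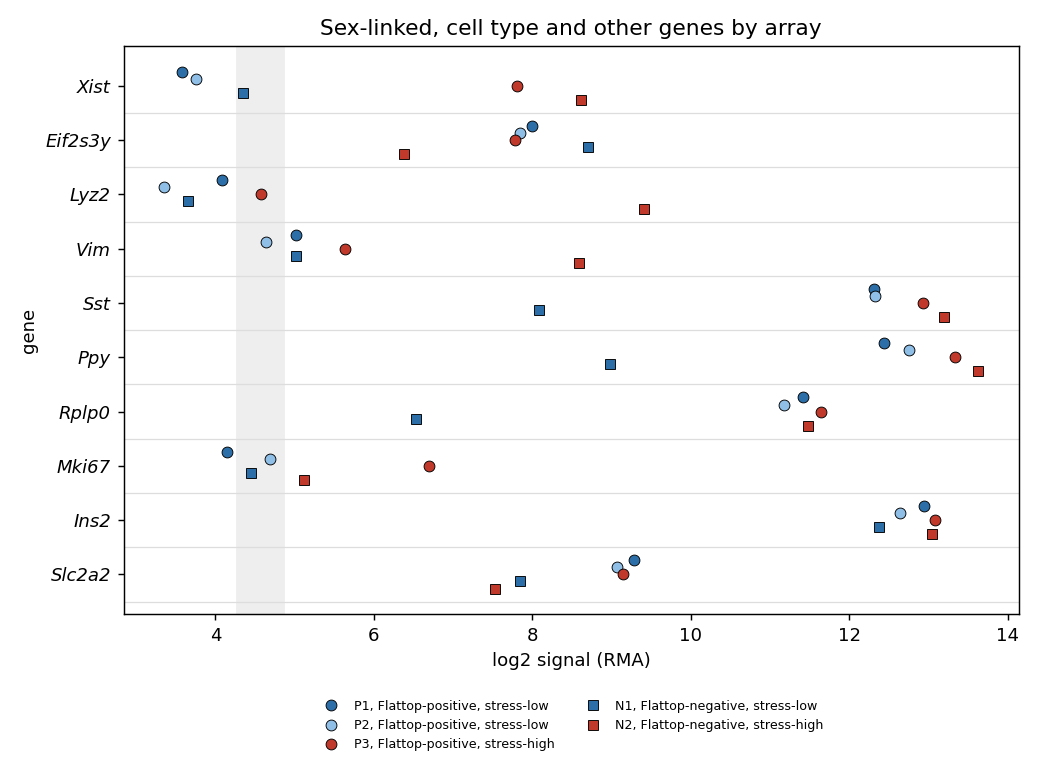
The log2 signal of 10 genes on each array, with circles for Flattop-positive and squares for Flattop-negative arrays, red for stress-high and blue for stress-low (light blue, P2). The grey band, from 4.27 to 4.86, spans the arrays' floors, each the 95th percentile for olfactory receptor genes; Xist separates the classes, Lyz2 and Vim are high on N2, and Sst, Ppy and Rplp0 are low on N1.

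Atf3, an ATF/CREB family repressor induced by many stresses, had log2 signals of 7.50 on P1, 5.27 on P2, 11.51 on P3, 7.61 on N1 and 11.74 on N2. No array lay near the threshold of 10: the nearest were N1 below it and P3 above it. The other markers given for the stress label were high on the same 2 arrays. Jun stood at 11.33 and 11.14 on P3 and N2, against 8.41, 7.37 and 6.83 on P1, P2 and N1. Egr2 stood at 8.32 and 8.44 against 4.47, 4.48 and 4.95, and Fos at 10.31 and 9.10 against 7.19, 5.77 and 6.74. Hspa1a, the inducible cytosolic Hsp70, stood at 9.96 and 10.13 against 6.52, 5.19 and 6.85, on a probe set that may also bind transcripts of its near-identical neighbour. The classes did not overlap in any of the 5 markers. For Atf3 this was fixed by the rule, and the other markers were given with the label, so this is no test of the label. Within the stress-low arrays, P2 had the lowest signal of Atf3, Fos and Hspa1a.

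The size of a difference was taken from a linear model with Flattop status as a covariate, which averages the difference among Flattop-positive arrays (P3 minus the mean of P1 and P2) and that among Flattop-negative arrays (N2 minus N1). The standard error (SE) is limma's moderated one. It combines the spread of a gene's 5 arrays around that model with a spread pooled over all genes. A small SE thus partly reflects the pooled spread. Atf3 differed by 4.70 ± 0.71 log2 units, the third largest of 19190 genes, with 5.12 in the positive and 4.12 in the negative arrays. Jun differed by 3.81 ± 0.41, Egr2 by 3.70 ± 0.21, Hspa1a by 3.75 ± 0.47 and Fos by 3.20 ± 0.56. Since these genes chose or describe the classes, the values show only how far apart the arrays were.

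**Figure D2:**
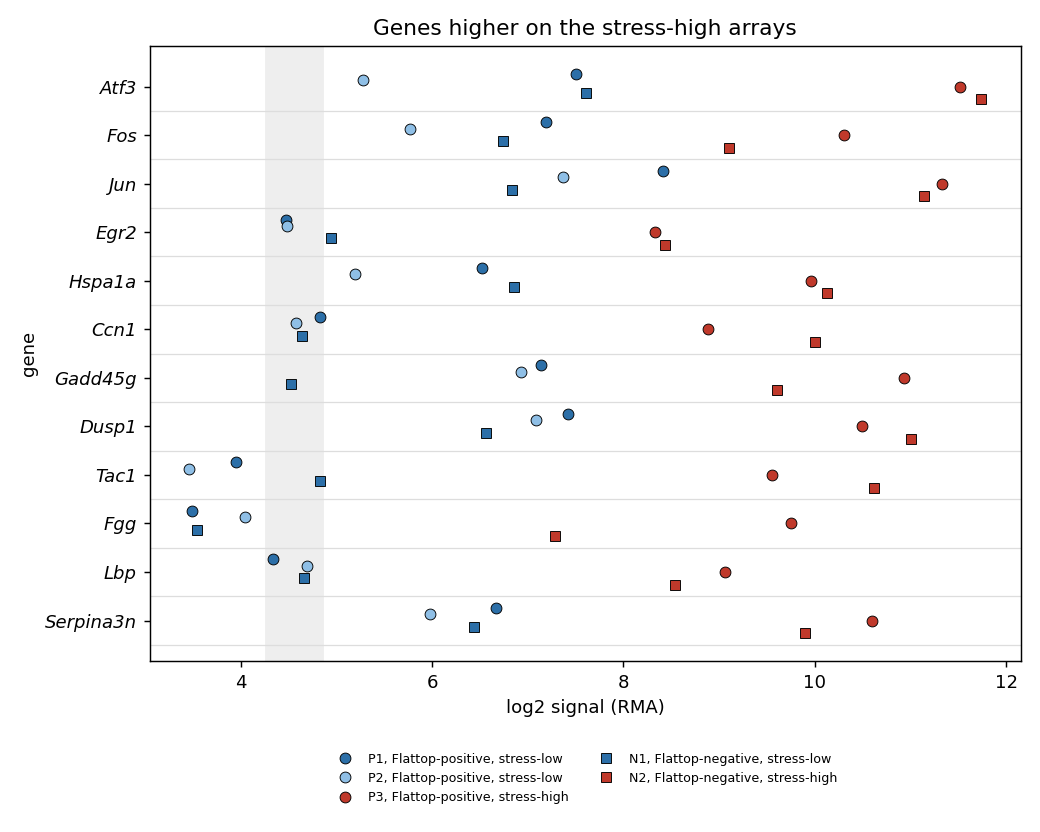
Log2 signals on the 5 arrays for the 5 stress markers and 7 other genes high on the stress-high arrays, with symbols as in the plot of sex-linked and cell type genes. In each of the 12 genes P3 and N2 (red) lie above P1, P2 and N1 (blue); Tac1, Fgg and Lbp lie in or near the grey floor band on the stress-low arrays.

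A gene was called higher or lower if both stress-high arrays lay above, or both below, all 3 stress-low arrays and the model's difference was at least 2-fold. Of 19190 genes, 491 were called higher (2.56%) and 471 lower (2.45%), 5.01% in all. Without P3, which leaves N2 against N1 with both other positive arrays, the counts were 1335 and 1805. Without a size limit, 13% were higher and 10.6% lower without overlap. With each array centred on its median the calls were 363 higher and 711 lower, which made the higher genes 33.8% of calls against 51.0%; that scaling moved the median difference of all genes from 0.03 to -0.09. Stom, at 1.001, and Emsy, at -1.005, lay just inside the size limit, and Gm15441 and Eif5b just outside it, at 0.999 and -1.0. In all, 179 of the higher and 90 of the lower lay under the floor, the 95th percentile for olfactory receptor genes, on at least 1 array, where the size of a difference is uncertain. The median fold was 2.67 for the higher and 2.39 for the lower genes.

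The difference within each Flattop status rests on separate arrays, so the values can be set side by side. In the Flattop-positive arrays 608 genes lay at least 2-fold higher on P3 (3.17%), and in the Flattop-negative arrays 2028 lay at least 2-fold higher on N2 (10.6%). Both held for 236 genes, 38.8% of the first list and 11.6% of the second. At least 2-fold lower were 481 genes (2.51%) and 2058 genes (10.7%), with 150 in both, 31.2% of the first and 7.3% of the second. Over all genes the correlation of the differences was r = 0.227 (rho = 0.156); genes are not independent replicates, and all arrays share 1 normalisation. The spread was wider among the negative arrays (SD over genes 0.91, against 0.52). P1 and P2, which share class and status, differed at least 2-fold in 270 genes (1.41%).

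**Figure D3:**
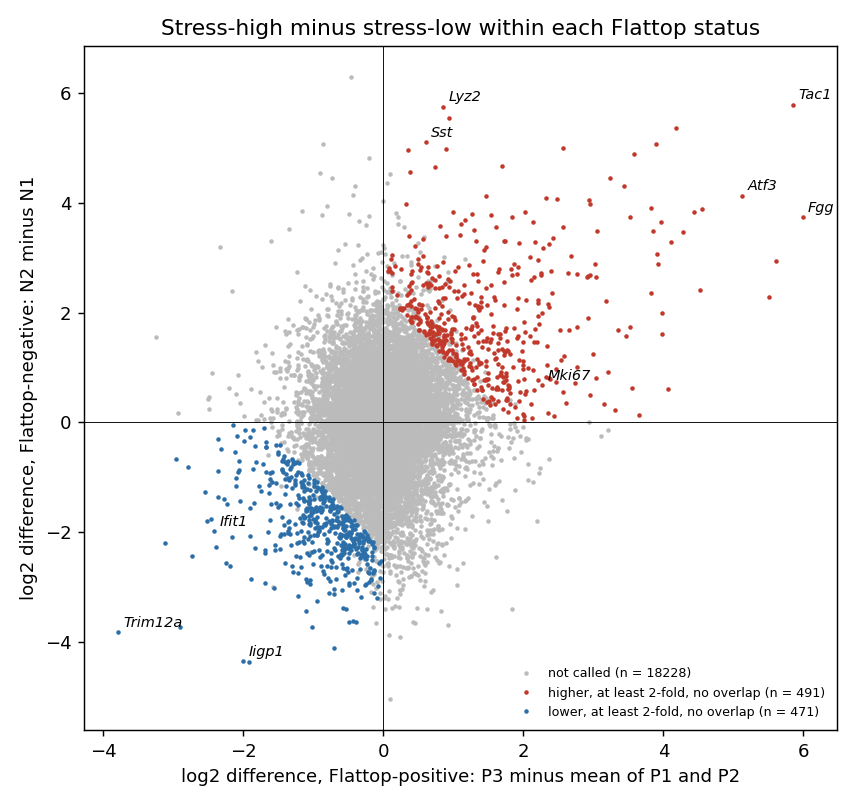
Each point is a gene; the horizontal axis gives the log2 difference P3 minus the mean of P1 and P2, and the vertical axis N2 minus N1, with called genes in red (491 higher) and blue (471 lower). Tac1, Atf3 and Fgg lie far from 0 on both axes and Trim12a far below 0 on both, while Lyz2 and Sst lie high on the vertical axis alone.

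Tac1, which encodes the precursor of the neuropeptide substance P, showed the largest difference of all genes. Its log2 signal was 3.95 on P1, 3.46 on P2 and 4.83 on N1, at or near the floor, and 9.55 on P3 and 10.62 on N2. The difference was 5.82 ± 0.24, with 5.85 among positive and 5.79 among negative arrays, so both statuses gave nearly the same size. The floor on P1 and P2 makes this size uncertain. Ccn1, a secreted matrix-associated protein and an immediate early gene, lay at 4.82, 4.58 and 4.64 on P1, P2 and N1 and at 8.88 and 10.002 on P3 and N2. Gadd45g, a growth arrest and stress sensor gene, lay at 7.14, 6.93 and 4.52 against 10.93 and 9.60. In Ccn1 the stress-high arrays stood apart from the rest by more than the stress-low arrays differed among themselves, while in Gadd45g the low value on N1 widened the spread of the stress-low arrays.

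Of the 34 immediate early factors on the list, all measured, 22 were called higher and 0 lower, beside 2.56% and 2.45% of all genes. The median difference of the list was 1.68, against 0.03 over all genes. It was 1.62 among positive and 2.17 among negative arrays. The shares of 2.56% and 2.45% are the background for the counts of every list that follows. Beside the markers, Arc, a postsynaptic protein gene induced by activity, differed by 3.41, Ier2 by 3.39, the bZIP repressor Nfil3 by 3.13, Klf6 by 2.87 and Egr1 by 2.84. Fosb lay at 8.84 on P1, 5.88 on P2, 9.64 on P3, 6.80 on N1 and 9.97 on N2. P1 was thus much nearer to the stress-high arrays than P2 was in this gene. The list's median level was 7.04 on P1, 5.88 on P2, 8.33 on P3, 6.30 on N1 and 8.50 on N2. In some members that were not called, P1 lay above P3. Nr4a1 lay at 8.66 on P1 and 8.28 on P3, Srf at 9.39 and 8.76, and Npas4 at 8.27 and 6.66. Arc, Ier2, Nfil3, Klf6, Egr1, Nr4a1, Srf and Npas4 were chosen for mention with their values known. Since Atf3, which set the classes, is on the list, and the list was chosen with the classes known, the count supports nothing beyond describing these arrays.

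Feedback genes that shut down MAP kinase signalling, cytokine signalling or unstable mRNAs were called higher in 20 of 30 and lower in 0, beside 2.56% and 2.45% of all genes, with a median of 1.33. Dusp1, the nuclear MAP kinase phosphatase, lay at 7.42 on P1, 7.09 on P2 and 6.56 on N1 and at 10.49 on P3 and 11.005 on N2. Its classes were more than 3 log2 units apart. Gadd45b lay at 8.84, 6.89 and 4.97 against 10.43 and 9.97, and Socs3, the inhibitor of STAT3-coupled cytokine receptors, at 7.11, 6.74 and 4.87 against 9.40 and 8.93. N1 was the lowest array in each of these. The median difference of the list was 1.81 among negative and 1.15 among positive arrays, and the part that low signals on N1 have in this was not tested.

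**Figure D4:**
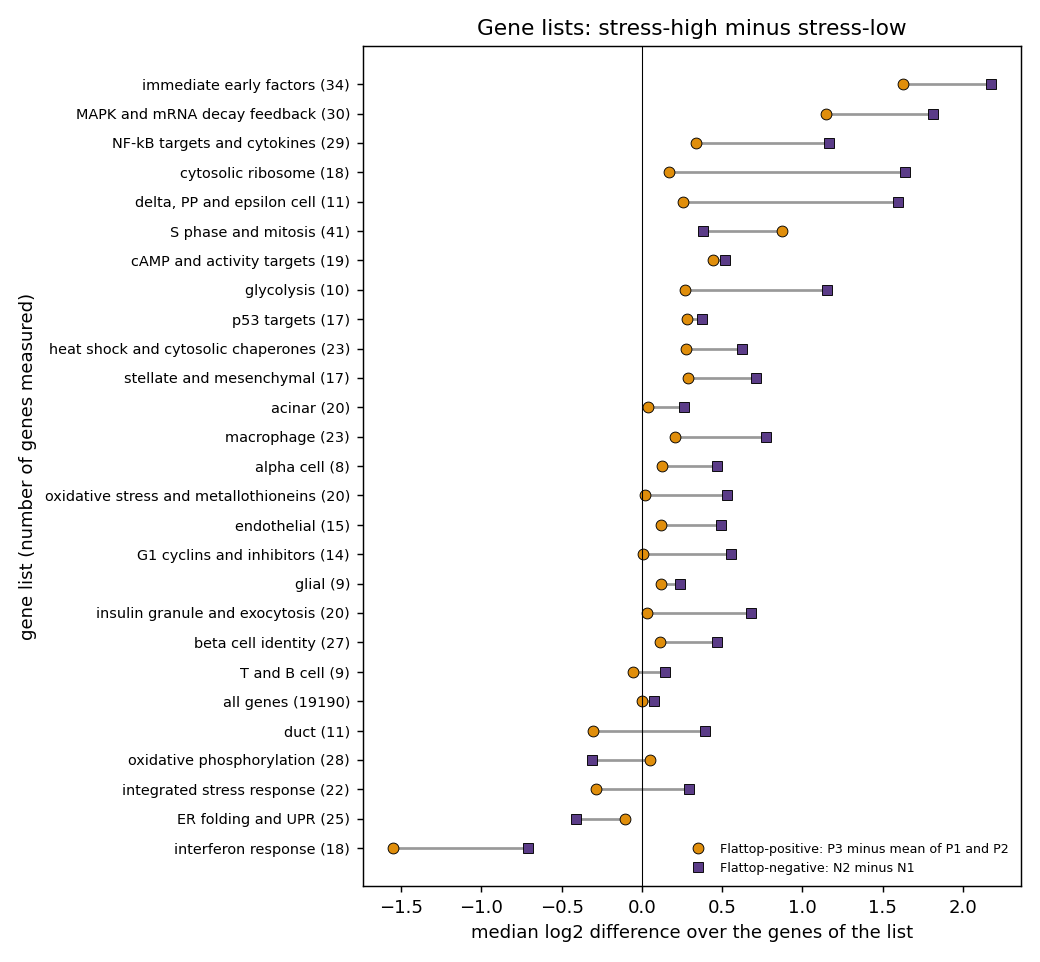
Median log2 difference, stress-high minus stress-low, of each gene list among Flattop-positive (orange circles) and Flattop-negative (purple squares) arrays, with the number of genes measured in brackets. Immediate early and feedback genes lie highest on both measures and interferon genes lowest (-1.55 and -0.71), while ribosomal, minor endocrine and glycolysis lists differ mainly among the negative arrays.

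NF-κB targets and cytokines were called higher in 11 of 29 measured genes and lower in 0 (median 0.89). The median was 0.34 among the positive arrays, which is also its value without N1 or without N2, and 1.17 among the negative arrays, its value without P3. The neutrophil chemokine gene Cxcl1 lay at 5.55, 5.31 and 5.64 on P1, P2 and N1 and at 9.36 and 8.53 on P3 and N2. Cxcl2 lay at 3.27, 3.20 and 3.52, under the floor, against 6.25 and 6.41. Icam1, the leukocyte adhesion receptor, lay at 5.41, 5.12 and 5.27 against 8.03 and 7.96, a difference of 2.74 ± 0.21. In these 3 genes the stress-low arrays lay within 0.4 log2 units of each other. The interleukin 6 gene Il6, named after its value was seen, differed by 3.65 among positive arrays and by 0.13 among negative arrays, and lay above the floor on P3 alone. Nfkbia, the inhibitor IκBα, differed by 1.47 and 3.20.

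Several secreted acute phase and injury proteins were among the 15 highest genes, although no list of acute phase genes alone had been written. Fgg, the fibrinogen γ chain, lay at 3.49, 4.04 and 3.54 on P1, P2 and N1, under the floor, and at 9.75 and 7.28 on P3 and N2. Lbp, which binds bacterial lipopolysaccharide, lay at 4.34, 4.70 and 4.66 against 9.07 and 8.54. Serpina3n, a serine protease inhibitor, lay at 6.67, 5.98 and 6.43 against 10.60 and 9.90. Each of the 3 was higher on both stress-high arrays, and Fgg by more on P3 than on N2. Other acute phase genes, named after their values were seen, did not share this: haptoglobin (Hp) stayed between 3.88 and 4.42, Saa3 between 2.94 and 3.48, and the fibrinogen chain Fgb between 4.50 and 5.83. The fibrinogen chain Fga differed by 1.82 among positive and -0.025 among negative arrays and was not called. Saa1, Saa2 and Lcn2, which were on the NF-κB list, lay under the floor on every array and were not called.

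The rest of the 15 highest genes had mixed roles. Sprr1a, a small proline-rich protein of injured epithelia and neurons, differed by 3.86 ± 0.38. Gem, a small GTPase that restrains voltage-gated calcium channels, differed by 3.84 ± 0.55. The transmembrane semaphorin gene Sema6a differed by 4.14 ± 0.36, Tgif1, a homeobox repressor of TGF-β signalling, by 3.62 ± 0.21, and the linker histone gene H1f3 by 4.18 ± 0.23. Each lay at least 3.5 log2 units higher on P3 than the mean of P1 and P2, and on N2 than on N1. H1f3 was under the floor on P1 and P2.

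Of 23 measured genes for heat shock proteins and cytosolic chaperones, 3 were called higher and 1 lower (median 0.44), beside 2.56% and 2.45% of all genes. Without the size limit 7 lay higher and 1 lower without overlap, beside 13% and 10.6%. Besides Hspa1a, the co-chaperone gene Dnajb1 lay at 7.70, 6.59 and 6.70 on P1, P2 and N1 and at 9.50 and 8.86 on P3 and N2. Dnajb4 differed by 2.36 among positive arrays and by 0.18 among negative arrays. The constitutive genes Hspa8, Hsp90aa1 and Hspd1, named after their values were seen, differed by 0.62, 0.23 and -0.12 and were not called. Hsf2, a heat shock factor, was called lower, with 8.53 on N1 and 5.58 on N2 but 7.18, 7.23 and 6.95 on P1, P2 and P3.

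Endoplasmic reticulum stress genes differed in both directions. In the list of ER folding and unfolded protein response genes, 0 of 25 were called higher and 3 lower (median -0.44). Over all genes the shares were 2.56% and 2.45%, so a count of 0 higher is near the share. The model's difference was positive in 8 genes and negative in 17. Sdf2l1 and Herpud1, named after their values were seen, differed by 0.84 and 0.58 among positive arrays and by 1.26 and 1.10 among negative arrays. Hspa5, the ER chaperone BiP, lay at 12.11 on P1, 11.68 on P2, 11.97 on P3, 11.62 on N1 and 11.22 on N2, so P3 fell between P1 and P2. The genes called lower were Sel1l, of ER-associated degradation, Ern1, which encodes the sensor IRE1α, and the co-chaperone Dnajb9. Ern1 differed by -1.84 among positive and -0.43 among negative arrays, and Sel1l by -0.79 and -2.16. Of 22 measured genes of the integrated stress response, 2 were called higher, Ddit3 and Stc2. Ddit3, which encodes CHOP, lay at 8.99, 7.79 and 8.10 on P1, P2 and N1 and at 10.15 and 9.42 on P3 and N2.

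Of 17 measured p53 targets, 5 were called higher and 1 lower. The difference was positive in 13 and negative in 4. Mdm2, Zmat3 and Ccng1, named after their values were seen, differed by -0.15, -0.33 and -0.83 and were not called. Btg2 is also counted in the feedback list. Btg2, an anti-proliferative gene, differed by 2.65 ± 0.32, Fas, the death receptor, by 2.24 ± 0.43 and the kinase gene Plk2 by 1.47 ± 0.20, while Ccng2, a cyclin of resting cells, differed by -1.56 ± 0.22. Of 19 targets of cAMP and membrane activity, 6 were called higher and 1 lower. Vgf, a granule neuropeptide precursor, lay at 6.73, 6.79 and 6.31 on P1, P2 and N1 and at 8.70 and 9.57 on P3 and N2. In the list of oxidative stress genes 2 of 20 were called higher, the haem oxygenase gene Hmox1 (1.59 ± 0.51) and catalase (Cat, 1.19 ± 0.20).

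The genes lower on the stress-high arrays included many of the interferon response. Of 18 interferon genes measured out of 23 listed, 10 were called lower and 0 higher (beside 2.45% and 2.56% of all genes), with a median of -1.21. The median was -1.55 among the positive arrays, where 14 of 18 lay at least 2-fold lower on P3. It was -0.71 among the negative arrays, also its value without P3, where 8 lay at least 2-fold lower and 3 at least 2-fold higher on N2. The list's median level was 8.41 on P1, 8.61 on P2, 7.17 on P3, 7.31 on N1 and 7.15 on N2. N1 thus lay near the stress-high arrays in the list's median level, although, by the rule for a call, it lay above both of them in the 10 called genes. The IRF family gene Irf1, placed on the NF-κB list and named after its value was seen, went the other way. It was called higher, by 2.02 among positive and 1.64 among negative arrays.

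Ifit1, an RNA-binding antiviral protein gene, lay at 10.73 on P1, 10.03 on P2 and 10.61 on N1 and at 7.96 on P3 and 8.62 on N2. Oasl2, an oligoadenylate synthetase-like gene, lay at 8.54, 8.998 and 8.63 against 6.25 and 6.84, a difference of -2.21 ± 0.28. Usp18, the deISGylating enzyme that damps interferon receptor signalling, lay at 9.07, 9.52 and 8.49 against 6.94 and 7.13. In these genes the 3 stress-low arrays lay within about 1 log2 unit of each other and well above both stress-high arrays. The dynamin-like antiviral gene Mx1 lay at 6.92, 5.77 and 7.43 against 4.65 and 5.04. B2m, the light chain of MHC class I, lay at 10.87, 10.75 and 11.35 against 9.70 and 9.73, a difference of -1.32.

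**Figure D5:**
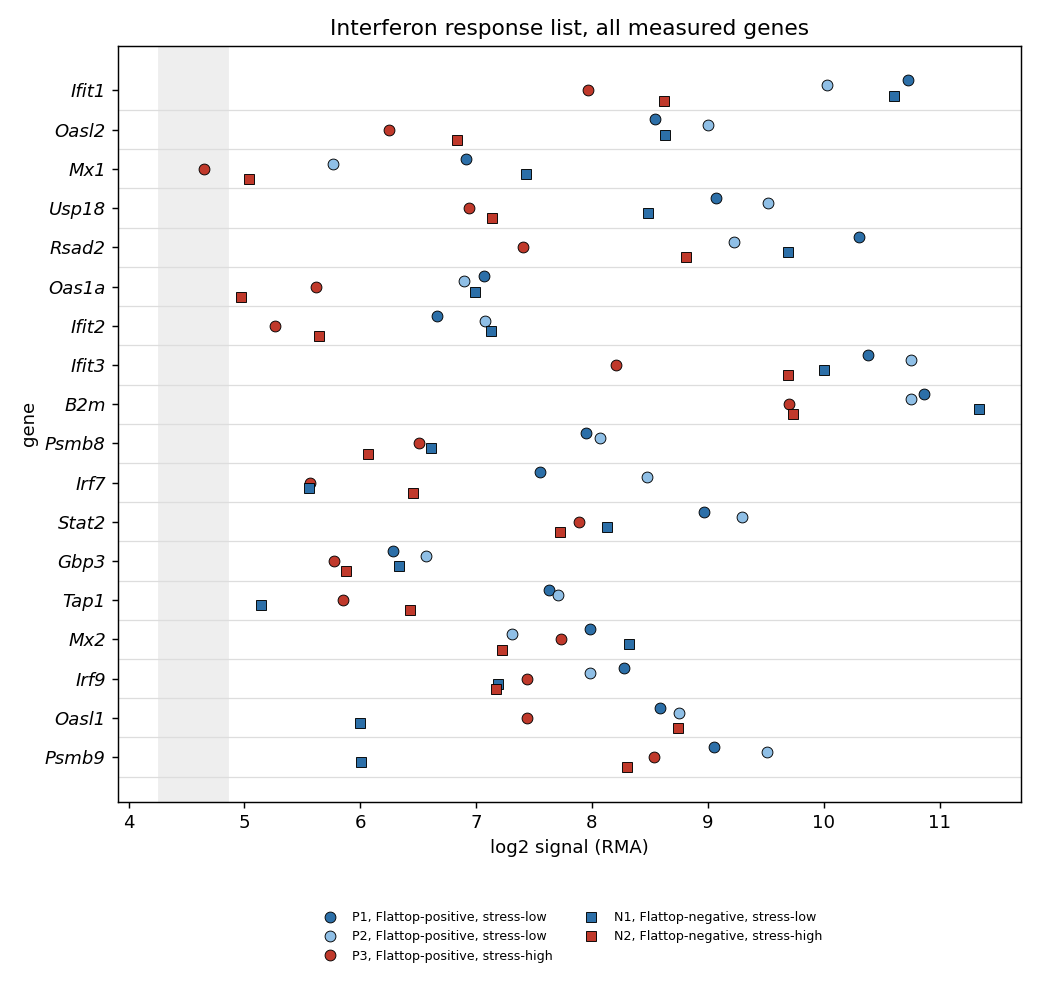
Log2 signals on the 5 arrays for the 18 measured genes of the interferon list, ordered from the most negative difference at the top, with symbols as in the plot of sex-linked and cell type genes and the grey band marking the floor. In the 10 called genes P3 and N2 (red) lie below P1, P2 and N1 (blue); in Oasl1, Psmb9 and Tap1 the lowest array is N1.

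In some members that were not called, N1 did not lie with P1 and P2. Irf7, the interferon-induced factor that amplifies the response, lay at 7.55 on P1, 8.47 on P2 and 5.57 on P3, but at 5.56 on N1 and 6.46 on N2. Tap1, the peptide transporter of antigen presentation, lay at 7.63, 7.71 and 5.85 on P1, P2 and P3, and at 5.14 and 6.43 on N1 and N2. In both genes P3 lay below P1 and P2 while N1 lay below N2. Irf7 and Tap1 were picked with their values in view.

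The 15 lowest genes held further genes of the same kind from outside the list. Tnfsf10, the death ligand TRAIL, lay at 7.83, 7.71 and 7.31 on P1, P2 and N1 and at 5.04 and 4.88 on P3 and N2. Parp14, a mono-ADP-ribosyltransferase, differed by -2.34 ± 0.21, Ifit3b by -2.38 ± 0.22, Xaf1 by -2.72 ± 0.29, the guanylate-binding protein gene Gbp9 by -2.16 ± 0.27 and the double-stranded RNA kinase gene Eif2ak2 by -2.22 ± 0.43. Apobec3, a cytidine deaminase that restricts retroviruses, differed by -2.14 ± 0.20. Iigp1, an interferon-γ-induced GTPase, lay at 7.27, 6.77 and 8.82 on P1, P2 and N1 and at 5.02 and 4.47 on P3 and N2. All of these are known to be induced by interferon.

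Trim12a, a tripartite motif gene related to the antiviral factor Trim5, was the lowest of all called genes. It lay at 6.55 on P1, 6.97 on P2 and 6.98 on N1 and at 2.98 on P3 and 3.16 on N2. The stress-high arrays were thus below the floor while the other 3 lay within 0.5 log2 units of each other. Dennd11, a DENN domain gene, lay at 8.48, 7.98 and 10.12 against 5.33 and 6.39. The other lowest genes were Dio1, which encodes the type 1 thyroid hormone deiodinase (-2.37 ± 0.21), Idh1, the cytosolic isocitrate dehydrogenase (-2.03 ± 0.22), and Prom1, the membrane protein prominin (-1.98 ± 0.21).

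Genes of DNA replication and mitosis were called higher in 10 of 41 measured genes and lower in 0 (median 0.62). The median was 0.87 among positive and 0.38 among negative arrays, so this list, unlike the feedback list, differed more within the Flattop-positive fraction. Mki67, the marker of cycling cells, lay at 4.15 on P1, 4.69 on P2, 6.69 on P3, 4.45 on N1 and 5.12 on N2. It was highest on P3, and under or near the floor elsewhere. Prc1, of the spindle midzone, lay at 3.45, 4.07 and 3.45 on P1, P2 and N1 and at 5.76 and 4.92 on P3 and N2. Cdk1, the mitotic kinase, passed the floor on P3 alone. Of 14 G1 cyclins and inhibitors 0 were called.

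Of 27 measured β-cell identity genes 0 were called in either direction, beside 5.01% of all genes, with a median of 0.15. A count of 0 in 27 is near that share. Ins2 and Isl1, an islet homeobox factor, lay higher on both stress-high arrays without overlap but by less than 2-fold. Pdx1, the β-cell homeobox factor, lay at 8.69 on P1, 9.03 on P2, 8.86 on P3, 7.66 on N1 and 7.36 on N2, so P3 fell between P1 and P2. Slc2a2, the glucose transporter GLUT2, lay at 9.28, 9.07 and 9.15 on the positive arrays and at 7.84 and 7.53 on the negative arrays. In both genes the arrays separated by Flattop status rather than by stress class. Ucn3, a peptide of mature β-cells, differed by 0.02 among positive and -0.99 among negative arrays. Of 28 genes of oxidative phosphorylation 0 were called, with a median of -0.04. In the list of insulin granule and exocytosis genes 3 of 20 were called higher, Vgf, Scg5 and Chgb, each lowest on N1.

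Markers of other cell types were also among the called genes, and their part in the results was not tested. Of 23 macrophage genes 1, Lyz2, was called higher. The log2 of the list's summed signal was 9.09 to 9.33 on the stress-low arrays, 9.16 on P3 and 10.64 on N2. The sum was highest on N2, and on P3 it lay within the range of the stress-low arrays. The same sum for stellate and mesenchymal genes was 8.45 to 8.70 on the stress-low arrays, 8.83 on P3 and 10.08 on N2, with 3 of 17 called higher (Vim, Sparc and Fn1). Endothelial (15 measured), glial (9) and T and B cell genes (9) had 0 calls. In the list of 11 δ, PP and ε cell genes 4 were called higher, Sst, Ppy, Etv1 and Rbp4, with Sst at 12.32, 12.33 and 12.92 on P1, P2 and P3 and 8.08 and 13.19 on N1 and N2. In the acinar list 3 of 20 genes were called higher, Spink1, Ctrb1 and Cpa1, and 1 lower, Bhlha15. Spink1 differed by 2.57 among positive and 0.56 among negative arrays and Ctrb1 by 0.57 and 3.03. In the duct list 2 of 11 were called higher, Muc1 and Sox9. In the α-cell list 1 of 8 was called higher, Ttr, and 1 lower, Dpp4. In the lists of glycolysis and cytosolic ribosome genes 2 of 10 and 2 of 18 were called higher, all lowest on N1, and the 1 red blood cell gene measured was not called.

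The study's own comparison, Flattop-positive against Flattop-negative cells, did not choose the classes and could be tested. In limma, 0 of 19190 genes passed an adjusted p of 0.05 without the stress class (smallest adjusted p = 0.193) and 0 with it as a covariate (0.167). With no adjustment, 2652 genes (13.8%) had a p under 0.05 without the class and 3082 (16.1%) with it. Because the class was read from the same arrays, the p-values with the covariate may be too small. Of the 34 immediate early genes, 0 were at an unadjusted p under 0.05 without the covariate and 1 with it, and their median Flattop difference was -0.24 and 0.02. Of 27 β-cell identity genes the numbers were 13 and 16, with medians of 0.96 and 1.06 log2 units higher in Flattop-positive arrays, and of 28 oxidative phosphorylation genes 20 and 21, with medians of 1.27 and 1.24. The medians of the latter lists thus moved by about 0.1 log2 units or less when the class was added. With these arrays, adding the class shifts a gene's Flattop difference by a fixed share of its class difference. A list with a small class difference must therefore move little. The small move cannot show whether the Flattop difference is independent of the class. Of 18 interferon genes 1 and 2 were at that threshold. Without both stress-high arrays, where 2 positive arrays are set against N1 alone, 0 genes passed the adjusted threshold and 5718 had an unadjusted p under 0.05. Without N2, 433 genes passed it, 360 of them higher in Flattop-positive arrays. That fit sets 3 positive arrays against N1 alone, an array that stood apart, and takes its spread from the positive arrays only, assuming that N1 would vary like them.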

How the data were processed

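Analysis started from the log2 signals deposited for each probe set. The submitters' processing notes name RMA, which corrects background, normalises between arrays and summarises probes, and Expression Console 1.3.0.187. A genome build was not given in the sources read. Of 35556 probe sets, 21789 carried 1 gene symbol, 1621 several and 12146 no listed gene. The probe set with the highest mean was kept per gene (19938 genes), and 748 genes on X or Y were left out. Cdkn1a, on a shared probe set, was not analysed.

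Differences between the classes came from a linear model with class and Flattop status (limma 3.58.1, R 4.3.3), with no test. Flattop fractions were compared with limma's moderated test (two-sided, Benjamini-Hochberg adjusted). The code was tested on simulated data. The P values set a Flattop difference against the spread of these pools around the model, moderated by a spread pooled over all genes. Without the class, the Flattop-negative part of that spread rests on N1 and N2 alone. An array's floor is the 95th percentile for 1021 olfactory receptor genes.

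Genes named are the 5 markers; the 15 highest and 15 lowest called genes by the smaller within-status difference, leaving out gene models, small RNAs, pseudogenes and chemosensory receptors; up to 4 called genes per list by size; and a fixed set of hormone, maturity, stress and cell type genes. Members and lists were chosen with earlier results of these data known. There were 27 lists, with 519 of 581 entries measured. Some lists share genes, among them Btg2, Fosb and Vgf, so the counts of different lists are not independent. Alternatives were other scalings, a filter on dim genes, the mean of probe sets, other sizes and thresholds, no covariate, X and Y genes kept, the replicate number as a block, other variance models, and each array left out.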

Additional observations from a re-analysis of the deposited data

Results flagged for a closer look

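In 1 of the 91 genes that the naming rule chose and in 4 gene lists, P3 lay outside P1 and P2 in 1 direction while N2 lay on the opposite side of N1. This difference between the Flattop statuses was not tested. Other genes that the text names were not screened in this way, and several of them show the same pattern. Examples are Irf7, Tap1, Oasl1, Psmb9, Hspd1, Hsp90aa1, Hp, Reg3g, Per2, Per3, Dbp, Vip, Penk and H1f8. Cfap126, the Flattop gene, differed by 0.17 among positive and -0.08 among negative arrays (0.24 apart). The median level of the integrated stress response list differed by -0.26 and 0.10 (-0.37 apart), of T and B cell genes by -0.16 and 0.45 (-0.61 apart), of G1 cyclins and inhibitors by -0.06 and 0.47 (-0.53 apart), and of insulin granule genes by -0.16 and 0.45 (-0.61 apart).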

How the results depend on the processing

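Of 83 called genes named, 0 changed direction under any alternative that gave a value. For most alternatives this was fixed in advance. The rule for a call sets the direction when an array is left out, the covariate is dropped or each status is taken alone. Only other scalings, the mean of probe sets and the replicate block could have changed it. The counts of 491 higher and 471 lower genes were 1164 and 1210 at 1.5-fold, 193 and 84 at 3-fold, 796 and 871 with the replicate number as a block, and, added after the data were seen, 2028 and 2058 in Flattop-negative arrays alone. With arrays centred on medians 711 were lower. Leaving out each array in turn gave 481 to 1335 higher and 358 to 1805 lower; the largest came without P3, which leaves N2 against N1, and 711 were lower without P2. The Atf3 threshold at 9 or 11 chose the same arrays. Under the replicate block the medians were 3.01 for immediate early, 2.59 for feedback, 1.55 for NF-κB and -0.71 for interferon genes. P3 is the only array with its replicate number, so it does not enter the size of the difference under the block. That size is N2 minus N1, less P2 minus P1, and so includes the gap between 2 stress-low arrays. Leaving out each array gave 0.34 to 1.17 for NF-κB and -1.55 to -0.71 for interferon genes; in positive arrays alone the NF-κB median was 0.34, in negative arrays alone 1.17, and the interferon median there -0.71. In the Flattop comparison 0 to 433 genes passed the adjusted threshold with an array left out, the 433 without N2, and 2282 had an unadjusted p under 0.05 and 1.5-fold. With the block 0 passed. Replicate numbers 1 and 2 showed deviations correlated at 0.178 and -0.143, which does not show that the numbers pair the arrays; whether same-numbered pools share a sort cannot be told from 2 pairs. The causes were not tested. Signals near the floor and the number of arrays limit the sizes.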

Other observations

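Further genes also separated the arrays. They were named after their values were seen, and the difference between the classes carries no test. Of 8 linker histone genes tested, 5 were called higher and 0 lower, beside 2.56% and 2.45% of all genes. This family was not on the lists and was counted after members were seen to be high. Besides H1f3, H1f2 lay at 10.75, 9.83 and 9.42 on P1, P2 and N1 and at 11.95 and 12.22 on P3 and N2, and H1f1, H1f5 and H1f10 differed by 2.83, 1.67 and 2.23. The core histone gene H2bc14 differed by 2.61 and the chromatin protein gene Hmgb2 by 2.65. The linker histone genes H1f6, H1f7 and H1f8 lay between 4.05 and 5.72 on every array and were not called.

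Some genes for precursors of secreted peptides other than Tac1 were also called higher, and others were not. Npy, which encodes neuropeptide Y, lay at 6.00, 5.70 and 6.31 on P1, P2 and N1 and at 8.10 and 9.03 on P3 and N2. Pomc, the precursor of melanocortins, differed by 2.80, Adm, adrenomedullin, by 2.80, Hamp, hepcidin, by 2.49 and Nts, neurotensin, by 1.87. Other peptide genes, Gal, Vip, Penk, Pdyn and Cck, were not called, with differences of 0.82, -0.06, 0.28, -0.15 and 0.53. Reg3b, a secreted lectin of injured pancreas, lay at 3.16, 4.06 and 4.20 against 9.22 and 7.14. Pancreatic regenerating genes of the same family, Reg3g and Reg3a, lay under the floor on every array.

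Among clock genes, Nr1d1, the nuclear receptor REV-ERBα, lay at 9.28, 8.86 and 8.28 on P1, P2 and N1 and at 10.79 and 11.57 on P3 and N2, and Per1 differed by 2.25. Per2, Per3, Dbp and Arntl differed by 0.22, 0.29, 0.56 and 0.62 and were not called. Further interferon-induced genes were called lower, with Dhx58 at -1.998, Oas2 at -1.60, Irgm1 at -1.54, Nmi at -1.52 and Herc6 at -1.45. Trim30a, looked at with them, lay under the floor on every array and was not called (0.09).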
